A study of Homo sapiens with 12 samples.

Results

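The 51 genes described here carry cells from the end of G2 through mitosis and the final separation of the daughter cells. They are mitotic cyclins and kinases, spindle checkpoint and anaphase genes, kinetochore subunits, the chromosomal passenger complex, spindle and cytokinesis proteins, and proteins of mitotic chromosome structure. Kinesins other than CENPE were left out. Members were found by gene symbol among 16760 genes of a compound table and 17442 genes of an siRNA table, and all 51 had a row in both. RNA was sequenced from NCI-H1975 and HCC827, a pair of established cell lines of human non-small cell lung cancer. One table held each line with 2.5 µM 18E, 5 µM 18E or DMSO, the vehicle, and 24 h is given for the 18E samples. The other held each line with the siRNA siDYN-1, the siRNA siDYN-2 or the control siRNA siCON, and 48 h is given for the siDYN samples. No time is given for the controls. The series title names LIC1, a name of DYNC1LI1, a light intermediate chain of the motor cytoplasmic dynein. Each treatment of a line gave 1 library, which makes 12, and the lines stand as the replicates of a treatment (n = 2 lines). Where siDYN is compared with siCON, both siRNAs count as the same knockdown. Those p-values thus also take the siRNAs of a line, which share a siCON library, as replicates. Nothing in the labels says that a line was cultured more than once. P-values therefore measure the disagreement between these libraries.

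Entry into mitosis is driven by CDK1 bound to a B-type cyclin, which CDC25 phosphatases switch on and PLK1 and Aurora kinases support. At unattached kinetochores the spindle checkpoint holds CDC20 away from the anaphase-promoting complex, a ubiquitin ligase. Once all chromosomes are attached, that ligase marks cyclin B and securin for destruction, separase cuts cohesin, and the cell divides. Most of these genes are transcribed in late G2 and mitosis and little in G1, so their level in a culture depends on how many of its cells are in those phases. That timing is set through the MuvB complex, which with B-Myb and FOXM1 turns the genes on, and with p130 or p107 keeps them off in resting cells. Dynein moves along microtubules, positions the spindle and strips checkpoint proteins from attached kinetochores.

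The promoters of these genes are known for a short word read by MuvB, the cell cycle homology element (CHR), and for CCAAT boxes bound by NF-Y. Windows from 250 bases before to 50 bases after the gene start were taken from RefSeq on GRCh38.p14. Of the 51 members 41 had one, and FOXM1, AURKA, BUB3, TTK, UBE2C, KNL1, BIRC5, TPX2, RACGAP1 and HMGB2 had none in the table used. A CHR word, TTTGAA or TTCGAA on either strand, was found in 30 of 41 windows (73.2%), against 16.6% of all 27305 promoters in that table and 11.0% of the 9873 promoters of genes tested here. CCAAT on either strand was found in 30 of 41 (73.2%), against 35.7% of all promoters and 36.9% of those of genes tested, and both words in 23 of 41 (56.1%), against 6.6% and 4.7%. Members with at least 2 CCAAT words made up 48.8%, against 11.3% of all promoters and 14.1% of those of genes tested. An E2F word (TTTGGCGC, TTTCCCGC, TTTGCCGC or TTTCGCGC, either strand) was in 3 of 41 (7.3%), against 3.3% of all promoters and 5.6% of those of genes tested, a share of members near the background. A match describes letters and not a bound site. Shown here are the 120 bases before the start of 8 members that differ in their words, read 5′ to 3′ along the gene's strand, with CHR and CCAAT matches of either strand in capitals.
PLK1, chr16:23678769-23678888, plus strand: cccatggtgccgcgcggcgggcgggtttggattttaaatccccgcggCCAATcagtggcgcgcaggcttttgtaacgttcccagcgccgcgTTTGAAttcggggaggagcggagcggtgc
CCNB2, chr15:59105026-59105145, plus strand: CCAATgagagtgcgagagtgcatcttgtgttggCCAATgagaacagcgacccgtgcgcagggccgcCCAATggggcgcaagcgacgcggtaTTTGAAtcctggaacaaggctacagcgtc
CDC20, chr1:43358861-43358980, plus strand: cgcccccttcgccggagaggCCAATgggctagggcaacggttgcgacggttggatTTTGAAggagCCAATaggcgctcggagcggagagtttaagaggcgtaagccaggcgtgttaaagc
INCENP, chr11:62123891-62124010, plus strand: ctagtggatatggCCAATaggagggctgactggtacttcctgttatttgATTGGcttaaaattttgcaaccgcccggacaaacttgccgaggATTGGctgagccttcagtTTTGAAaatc
BUB1B, chr15:40160949-40161068, plus strand: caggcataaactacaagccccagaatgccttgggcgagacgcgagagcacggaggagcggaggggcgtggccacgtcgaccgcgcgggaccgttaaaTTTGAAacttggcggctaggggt
ANLN, chr7:36389742-36389861, plus strand: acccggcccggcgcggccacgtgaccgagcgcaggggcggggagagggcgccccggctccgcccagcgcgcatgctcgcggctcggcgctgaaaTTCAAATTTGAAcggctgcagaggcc
MKI67, chr10:128126424-128126543, minus strand: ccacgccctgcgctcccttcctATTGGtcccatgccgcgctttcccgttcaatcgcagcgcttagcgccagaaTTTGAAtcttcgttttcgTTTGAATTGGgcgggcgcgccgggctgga
CCNB1, chr5:69167030-69167149, plus strand: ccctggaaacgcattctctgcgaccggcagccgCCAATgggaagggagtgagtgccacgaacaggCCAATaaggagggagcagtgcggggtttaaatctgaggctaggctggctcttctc
PLK1 holds 1 CCAAT and, closer to the start, 1 CHR word, whose first base lies 29 bases before the start. CCNB2 and INCENP have 3 CCAAT words and 1 CHR word in these bases. BUB1B and ANLN have CHR words and no CCAAT; the 2 words of ANLN stand end to end on opposite strands. In MKI67 a CHR word and a CCAAT word share 1 base. CCNB1 has 2 CCAAT words and neither CHR spelling in this window, which says only that those letters are not there.

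Values are FPKM, which scale the fragments of a gene to its length and to the library, so levels may be compared between genes per length, but read depth is unknown. Members ranged from 1.16 to 369 FPKM in the 18E table and from 1.12 to 564 FPKM in the siRNA table. In both tables KNL1, the kinetochore scaffold, was lowest and UBE2C, the ubiquitin-conjugating enzyme of the anaphase-promoting complex, highest. All 51 passed the filter on low values in both tables and had at least 1 FPKM in every library. HCC827 had less of most members than NCI-H1975 before treatment, in 46 of 51 with DMSO, where 57.3% of all genes tested were lower in HCC827, and in 40 of 51 with siCON, where 58.5% were. The median difference, HCC827 minus NCI-H1975 on the log2 scale, was -0.65 over the members and -0.13 over all genes with DMSO, and -0.18 and -0.14 with siCON. Epithelial markers had a summed level per library of 3768 to 9846 FPKM in the 18E table and 5693 to 10142 FPKM in the siRNA table. Single epithelial markers ranged from 7.14 to 2791 FPKM in the 18E table and from 7.17 to 3014 FPKM in the siRNA table. Blood markers, of which 3 and 4 of 6 had a row, were at or under 0.83 FPKM and endothelial and fibroblast markers at or under 1.47 FPKM. The siRNA target DYNC1LI1 (chromosome 3, 32525971 to 32570874, minus strand, GRCh38) was at 5.10 and 3.04 FPKM with siDYN-1 and siDYN-2 in NCI-H1975 cells, against 23.7 FPKM with siCON, and 2.42 and 1.22 FPKM with siDYN-1 and siDYN-2 in HCC827 cells, against 16.3 FPKM with siCON. It was at 21.4, 26.5 and 29.4 FPKM with DMSO, 2.5 µM and 5 µM 18E in NCI-H1975 cells and 13.6, 13.1 and 25.03 FPKM in HCC827 cells.

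With 18E the members were lower almost throughout, and more so at the higher dose. At 5 µM all 51 had a fitted change below 0, where 58.4% of the 11953 genes tested did, and their median was -0.85 on the log2(FPKM + 1) scale, against -0.09 over all genes. No member passed an adjusted p of 0.05 in limma's test across all genes; 1 gene of the whole table did (0.00837%). At an unadjusted p under 0.05, 46 of 51 were lower and 0 higher, where 16.8% of all genes were lower and 10% higher. The smallest adjusted p of a member was 0.10 and the largest 0.48. The 5 outside the unadjusted threshold were CDC25C, BUB3, MAD2L1, CDC20 and HMMR. Longer transcripts tended to have the more negative changes. In NCI-H1975 cells at 5 µM the Spearman rho with transcript length was -0.40 over all genes and -0.54 over the members. In HCC827 cells it was -0.12 and -0.21. At 2.5 µM these were -0.30 and -0.36 in NCI-H1975 cells and -0.16 and -0.40 in HCC827 cells. In bulk RNA fewer cells in G2 and mitosis and less RNA per cell cannot be told apart. The count rests on single libraries. Without the NCI-H1975 library at 5 µM 42 members passed the adjusted threshold, and without the HCC827 library at 5 µM 11 did. It was 8 without NCI-H1975 DMSO, 3 (CENPF, MKI67 and HMGB3) without either 2.5 µM library, and 0 without HCC827 DMSO. In fits with a 5 µM library left out, the lone library of that dose is assumed to vary like the others.

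**Figure D1:**
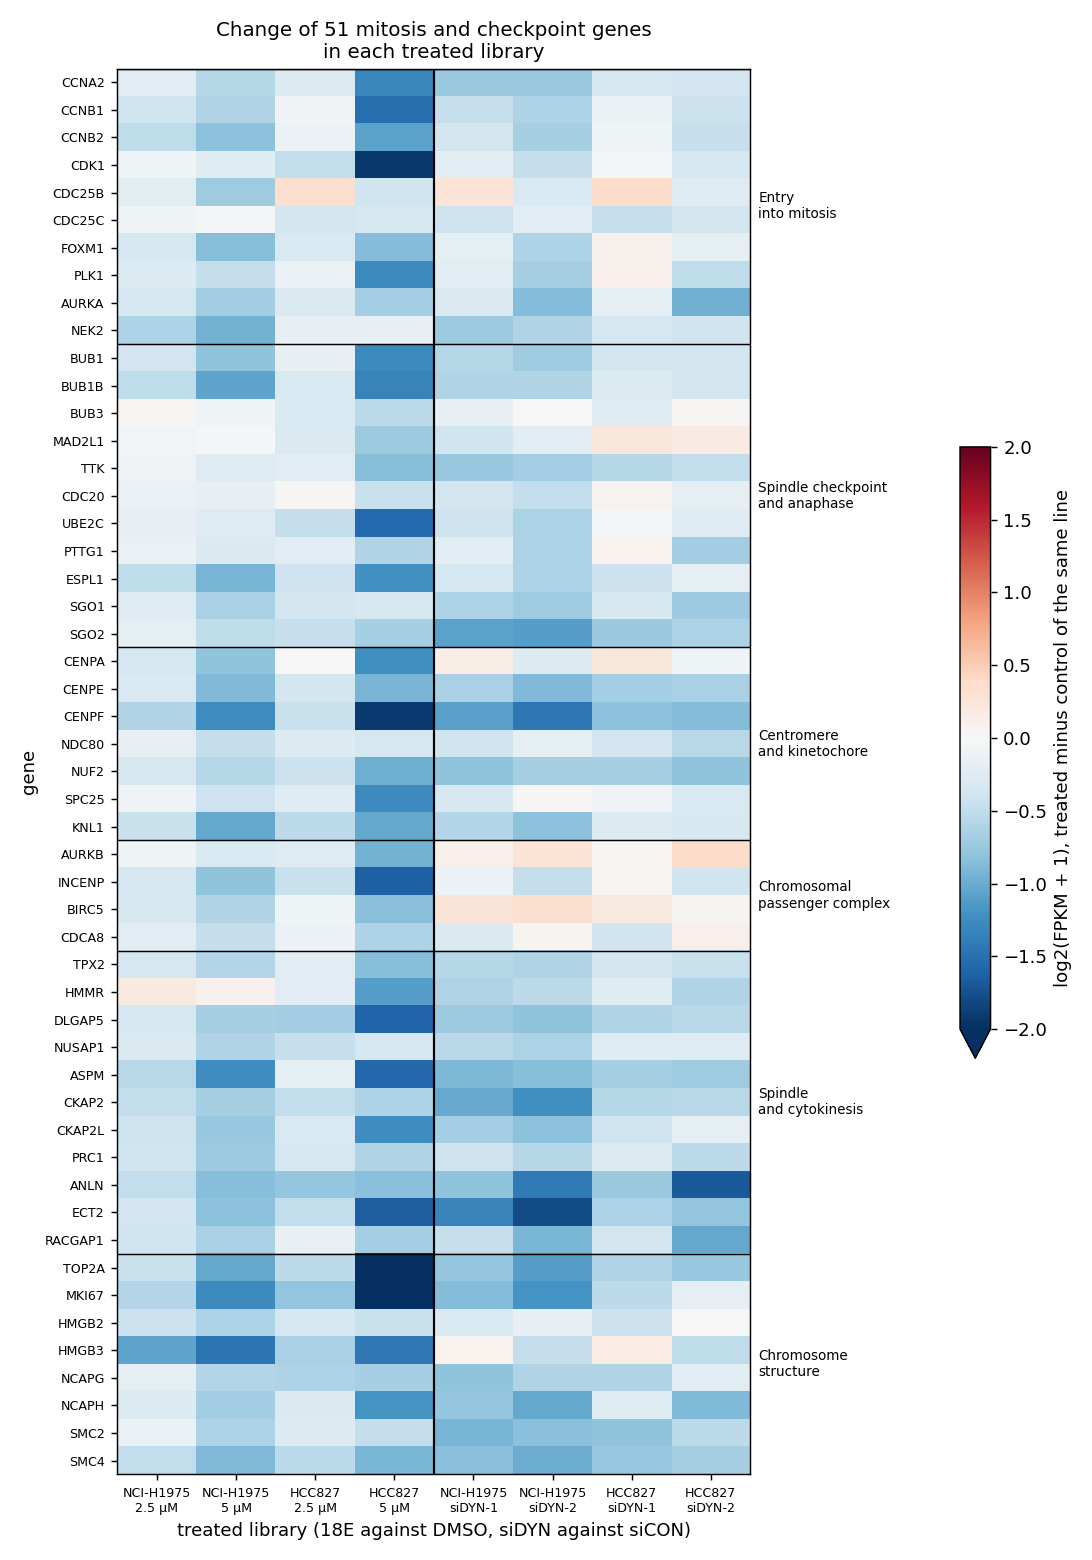
Log2(FPKM + 1) of each of the 51 genes (rows, grouped by role) in each of the 8 treated libraries (columns) minus the control of the same line and table. Blue is lower and red higher than the control, and the scale ends at -2, which TOP2A (-2.81) and MKI67 (-2.08) pass in HCC827 cells with 5 µM 18E; the 18E columns are blue in nearly every row, while AURKB and BIRC5 are red in all 4 siDYN columns.

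Among the genes of entry into mitosis, the median change at 5 µM was -0.87, and 9 of 10 were lower at an unadjusted p under 0.05. CDK1, the kinase that drives entry, was at 129, 122 and 109 FPKM with DMSO, 2.5 µM and 5 µM 18E in NCI-H1975 cells and 56.6, 39.7 and 14.1 FPKM in HCC827 cells. Its fitted change was -1.09 ± 0.40 (SE; adjusted p = 0.16), the most negative of this group. In HCC827 cells 24.9% of the DMSO level was left at 5 µM while 84.2% was left in NCI-H1975 cells. CCNB1, its cyclin partner cyclin B1, was at 273, 206 and 178 FPKM in NCI-H1975 cells and 146, 139 and 50.3 FPKM in HCC827 cells, in the same order of doses, a fitted change of -1.06 ± 0.30 (SE; adjusted p = 0.12). In HCC827 cells cyclin B1 was near the DMSO level at 2.5 µM and well under it at 5 µM. PLK1, a kinase of mitotic entry and spindle assembly, was at 84.4, 69.8 and 60.1 FPKM with DMSO, 2.5 µM and 5 µM 18E in NCI-H1975 cells and 78.3, 71.2 and 31.8 FPKM in HCC827 cells. FOXM1, the transcription factor of late cell cycle genes, was at 53.4, 41.8 and 29.3 FPKM in NCI-H1975 cells and 96.01, 77.9 and 52.1 FPKM in HCC827 cells, in the same order of doses, and its change at 5 µM was nearly equal in the lines. AURKA, the centrosomal Aurora kinase, likewise was lower by a like amount in each, at 122, 95.1 and 75.2 FPKM with DMSO, 2.5 µM and 5 µM 18E in NCI-H1975 cells and 82.4, 67.2 and 51.3 FPKM in HCC827 cells. CDC25C, a phosphatase that activates CDK1, was the least changed of the group at 19.7, 18.5 and 19.1 FPKM in NCI-H1975 cells and 12.2, 9.24 and 9.35 FPKM in HCC827 cells, in the same order of doses, a fitted change of -0.19 ± 0.17 (SE; adjusted p = 0.48). CDC25B, another phosphatase of that family, was at 68.6, 58.7 and 41.7 FPKM with DMSO, 2.5 µM and 5 µM 18E in NCI-H1975 cells and 62.1, 78.3 and 46.8 FPKM in HCC827 cells, above its DMSO level in HCC827 cells at 2.5 µM. NEK2, a centrosome kinase, was at 50.4, 32.6 and 25.6 FPKM in NCI-H1975 cells and 34.02, 30.3 and 30.2 FPKM in HCC827 cells, in the same order of doses, and the larger difference was in NCI-H1975 cells.

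The spindle checkpoint and anaphase genes had a median change of -0.56 at 5 µM, with 8 of 11 lower at an unadjusted p under 0.05. BUB1B, which encodes the checkpoint protein BUBR1, was at 21.6, 14.9 and 9.92 FPKM with DMSO, 2.5 µM and 5 µM 18E in NCI-H1975 cells and 21.2, 17.1 and 7.83 FPKM in HCC827 cells. Its change was -1.19 ± 0.19 (SE; adjusted p = 0.10), and it was at least 2-fold lower in both lines. BUB1, the checkpoint kinase at kinetochores, was at 74.9, 57.2 and 42.3 FPKM in NCI-H1975 cells and 28.8, 25.5 and 11.4 FPKM in HCC827 cells, in the same order of doses. ESPL1, the protease separase that cuts cohesin, was at 17.9, 12.3 and 8.89 FPKM with DMSO, 2.5 µM and 5 µM 18E in NCI-H1975 cells and 7.65, 5.47 and 2.73 FPKM in HCC827 cells, a change of -1.07 ± 0.18 (SE; adjusted p = 0.10). UBE2C, the highest member, kept most of its level in NCI-H1975 cells and lost most in HCC827 cells, at 369, 329.6 and 309 FPKM in NCI-H1975 cells and 220.0, 158 and 73.99 FPKM in HCC827 cells, in the same order of doses. BUB3, the adaptor of BUB1 and BUBR1, was at 163, 168 and 154 FPKM with DMSO, 2.5 µM and 5 µM 18E in NCI-H1975 cells and 63.1, 50.8 and 43.2 FPKM in HCC827 cells. MAD2L1, which binds and holds CDC20, was at 24.9, 23.9 and 24.2 FPKM in NCI-H1975 cells and 20.0, 16.3 and 11.7 FPKM in HCC827 cells, in the same order of doses. For both, no NCI-H1975 library with 18E was more than 0.1 log2 from DMSO, while HCC827 cells at 5 µM were -0.54 and -0.72 from it. TTK, the kinase MPS1 that starts checkpoint signalling, was at 36.4, 34.8 and 30.2 FPKM with DMSO, 2.5 µM and 5 µM 18E in NCI-H1975 cells and 13.4, 11.5 and 7.01 FPKM in HCC827 cells. CDC20, the target of the checkpoint, was at 204, 186 and 181 FPKM in NCI-H1975 cells and 205, 209.8 and 149.8 FPKM in HCC827 cells, in the same order of doses, lower than DMSO in HCC827 cells at 5 µM and not at 2.5 µM. SGO2, which protects centromeric cohesin, was at 20.1, 17.6 and 13.9 FPKM with DMSO, 2.5 µM and 5 µM 18E in NCI-H1975 cells and 10.01, 7.00 and 5.98 FPKM in HCC827 cells, a change of -0.58 ± 0.17 (SE; adjusted p = 0.12).

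All 7 centromere and kinetochore genes were lower at 5 µM at an unadjusted p under 0.05, with a median change of -0.91. CENPF, a large kinetochore and microtubule protein, was at 28.8, 18.7 and 11.4 FPKM with DMSO, 2.5 µM and 5 µM 18E in NCI-H1975 cells and 15.2, 10.9 and 3.30 FPKM in HCC827 cells. It was -1.59 ± 0.24 (SE; adjusted p = 0.10) in the fit, and every step of dose was lower than the one before in both lines. KNL1, the scaffold on which BUB1 and BUBR1 gather, was at 5.88, 4.07 and 2.37 FPKM in NCI-H1975 cells and 3.39, 2.06 and 1.16 FPKM in HCC827 cells, in the same order of doses, a change of -1.03 ± 0.17 (SE; adjusted p = 0.10). Its change was nearly the same in each line (-1.03 and -1.02) on the log2(FPKM + 1) scale, which understates changes of low genes. At 5 µM 40.3% of its DMSO level was left in NCI-H1975 cells and 34.2% in HCC827 cells. NDC80, the subunit that grips microtubules, was at 28.8, 25.6 and 20.4 FPKM with DMSO, 2.5 µM and 5 µM 18E in NCI-H1975 cells and 11.3, 9.20 and 8.62 FPKM in HCC827 cells, the least negative of the group at -0.42 ± 0.16 (SE; adjusted p = 0.18). The other 4 had fitted changes of -1.01 for CENPA, the centromeric histone, -0.91 for CENPE, a kinetochore motor, and -0.77 and -0.85 for NUF2 and SPC25, partners of NDC80. The chromosomal passenger complex, which corrects faulty attachments, had all 4 subunits lower at an unadjusted p under 0.05, with a median change of -0.67. Its scaffold INCENP was at 19.97, 15.5 and 10.96 FPKM with DMSO, 2.5 µM and 5 µM 18E in NCI-H1975 cells and 25.5, 18.4 and 7.59 FPKM in HCC827 cells, a change of -1.22 ± 0.24 (SE; adjusted p = 0.10). Its kinase AURKB was at 134, 127 and 109 FPKM in NCI-H1975 cells and 107, 89.6 and 55.1 FPKM in HCC827 cells, in the same order of doses. BIRC5, which encodes survivin, was at 146, 117 and 96.04 FPKM with DMSO, 2.5 µM and 5 µM 18E in NCI-H1975 cells and 40.1, 37.9 and 22.1 FPKM in HCC827 cells. CDCA8, which encodes borealin, was at 50.5, 43.04 and 35.9 FPKM in NCI-H1975 cells and 31.03, 28.4 and 19.9 FPKM in HCC827 cells, in the same order of doses, the least negative at -0.55. In each subunit the 5 µM level was the lowest of the 3 in both lines.

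**Figure D2:**
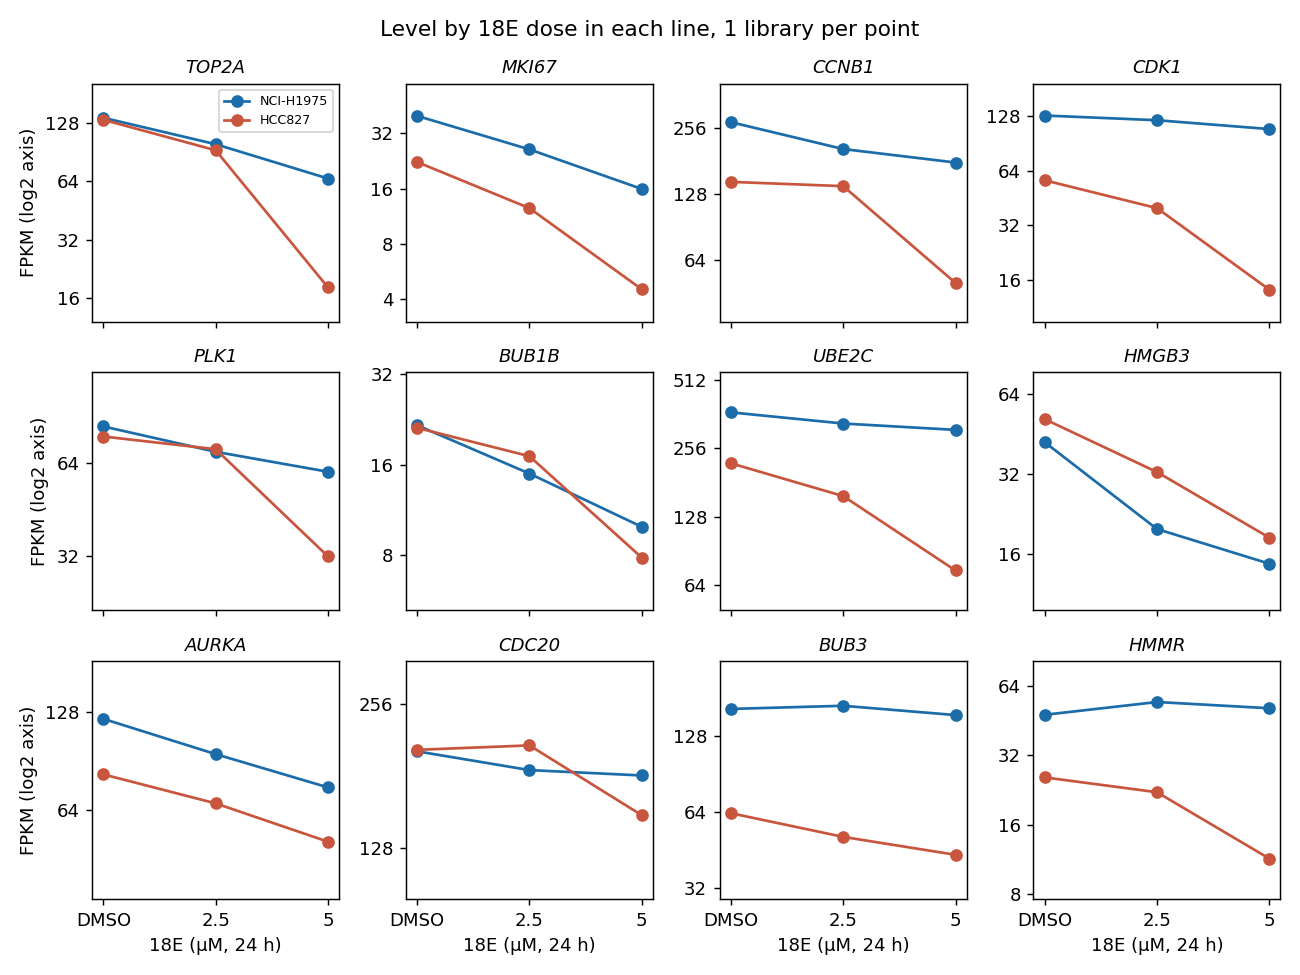
FPKM (log2 axis) of 12 members with DMSO, 2.5 µM and 5 µM 18E, 1 point per library, NCI-H1975 in blue and HCC827 in red. TOP2A steps down from 133 to 92.4 and 18.1 FPKM over the doses in HCC827 cells, BUB1B runs together in the lines, and BUB3 and HMMR are nearly level in NCI-H1975 cells.

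Spindle and cytokinesis genes had a median change of -0.72 at 5 µM, and 10 of 11 were lower at an unadjusted p under 0.05. ASPM, a spindle pole protein, was at 14.02, 9.18 and 5.32 FPKM with DMSO, 2.5 µM and 5 µM 18E in NCI-H1975 cells and 7.43, 6.35 and 1.85 FPKM in HCC827 cells, a change of -1.41 ± 0.21 (SE; adjusted p = 0.10). ECT2, the exchange factor that switches on RhoA for the cleavage furrow, was at 48.3, 36.8 and 26.98 FPKM in NCI-H1975 cells and 40.3, 28.3 and 12.1 FPKM in HCC827 cells, in the same order of doses. ANLN, the furrow scaffold anillin, was at 210.4, 149 and 116 FPKM with DMSO, 2.5 µM and 5 µM 18E in NCI-H1975 cells and 87.9, 50.98 and 48.5 FPKM in HCC827 cells, so just over 50% of the DMSO level was left in each line (54.9% and 55.2%). NUSAP1, a spindle microtubule protein, was the least negative in the fit at -0.48 ± 0.17 (SE; adjusted p = 0.16), with 65.4, 53.2 and 42.6 FPKM in NCI-H1975 cells and 41.3, 29.7 and 32.04 FPKM in HCC827 cells, in the same order of doses. HMMR, a spindle assembly protein, lay above DMSO in NCI-H1975 cells and below it in HCC827 cells, at 47.8, 54.3 and 51.03 FPKM with DMSO, 2.5 µM and 5 µM 18E in NCI-H1975 cells and 25.6, 22.1 and 11.4 FPKM in HCC827 cells. The chromosome structure genes had the most negative median of the 6 groups, -0.93, with 8 of 8 lower at an unadjusted p under 0.05. TOP2A, the topoisomerase that untangles chromosomes, was at 136, 99.3 and 66.1 FPKM with DMSO, 2.5 µM and 5 µM 18E in NCI-H1975 cells and 133, 92.4 and 18.1 FPKM in HCC827 cells. Its fitted change, -1.92 ± 0.45 (SE; adjusted p = 0.10), was the most negative of all 51, and its SE the largest, since 48.6% of the DMSO level was left in NCI-H1975 cells and 13.7% in HCC827 cells. MKI67, which encodes the proliferation marker Ki-67 that coats mitotic chromosomes, was at 39.9, 26.2 and 15.9 FPKM in NCI-H1975 cells and 22.3, 12.5 and 4.51 FPKM in HCC827 cells, in the same order of doses, a change of -1.68 ± 0.23 (SE; adjusted p = 0.10). HMGB3, a chromatin protein, was at 42.1, 19.8 and 14.7 FPKM with DMSO, 2.5 µM and 5 µM 18E in NCI-H1975 cells and 51.5, 32.5 and 18.4 FPKM in HCC827 cells, with nearly the same share of the DMSO level left at 5 µM in each line (34.8% and 35.8%). It was the only member at least 2-fold lower at 2.5 µM in either line (in NCI-H1975 cells, where 0.251% of all genes were; 0.502% were in HCC827 cells). SMC4, a condensin ATPase, was at 86.2, 61.3 and 46.1 FPKM in NCI-H1975 cells and 45.01, 30.95 and 23.3 FPKM in HCC827 cells, in the same order of doses, below DMSO at both doses in both lines. HMGB2, another chromatin protein, was at 205, 152 and 133 FPKM with DMSO, 2.5 µM and 5 µM 18E in NCI-H1975 cells and 128, 99.7 and 93.8 FPKM in HCC827 cells, the least negative of the group at -0.53 ± 0.14 (SE; adjusted p = 0.11). Transcripts of CCNA2, CDC25C, FOXM1, PLK1, MAD2L1, SGO1, SGO2, NUF2, HMMR, CKAP2L, PRC1, ANLN, RACGAP1, NCAPG and SMC4 overlap opposite-strand exons of other genes. Reads of such pairs cannot be told apart if strand was not used, which the sources used here do not say. Exons of BUB1B, CENPA, NUSAP1 and PRC1 overlap those of another gene on the same strand, where strand does not separate the reads.

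The dose order was shared by most members. At 2.5 µM 50 of 51 fitted changes were below 0 (50% of all genes), with a median of -0.32 against 0.00 over all genes, and 9 were lower at an unadjusted p under 0.05, where 2.01% of all genes were. These were ESPL1, KNL1, CKAP2, PRC1, ANLN, MKI67, HMGB2, HMGB3 and SMC4. None passed the adjusted threshold, with a smallest adjusted p of 0.91, and the median was -0.21 without the HCC827 DMSO library. The 5 µM level was lower than the 2.5 µM level in 50 of 51 fits (63% of all genes), by a median of -0.52 against -0.10, and 28 of 51 were lower and 0 higher at an unadjusted p under 0.05 (8.05% and 3.71% of all genes). That median was -0.33 without the HCC827 library at 5 µM. None passed the adjusted threshold there either (smallest adjusted p 0.41), except that 28 did without the NCI-H1975 library at 5 µM. Levels ran down step by step from DMSO through 2.5 µM to 5 µM in 47 members in NCI-H1975 cells (36.7% of all genes), in 46 in HCC827 cells (30.5%) and in 43 in both (17.6%). In NCI-H1975 cells CDC25C, BUB3, MAD2L1 and HMMR broke the order, and in HCC827 cells CDC25B, CDC25C, CDC20, SGO1 and NUSAP1 did. In all 4 libraries with 18E 47 members were below DMSO (23.8% of all genes). Those at least 2-fold lower in both lines at 5 µM were BUB1B, CENPF, KNL1, ASPM, TOP2A, MKI67 and HMGB3, 7 of 51 where 0.51% of all genes were.

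The lines differed in the spread of the changes at 5 µM more than in their sign. At 5 µM 7 members were at least 2-fold lower in NCI-H1975 cells (1.13% of all genes) and 23 in HCC827 cells (7.25% of all genes), and 0 were at least 2-fold higher (1.79% and 7.4% of all genes). Below DMSO were 50 members in NCI-H1975 cells (58.1% of all genes) and 51 in HCC827 cells (57% of all genes). The median change was -0.65 in NCI-H1975 cells and -0.92 in HCC827 cells, with all-gene medians of -0.07 and -0.10, and the standard deviation over the members was 0.33 in NCI-H1975 cells and 0.53 in HCC827 cells. At 2.5 µM the medians were -0.34 and -0.30, with 49 members below DMSO in each line (51.6% and 47.3% of all genes). The standard deviation over the members was there alike, 0.20 in NCI-H1975 cells and 0.21 in HCC827 cells. The change at 5 µM was more negative in HCC827 cells for 38 of 51 members, where 52.1% of all genes were, and at 2.5 µM for 28 of 51, where 46.6% were. Across the 51 members the changes of the lines at 5 µM had a Pearson r of 0.40, against 0.52 over all genes tested. In the interaction term, which uses the doses in place of replicates, no member passed the adjusted threshold. There 0 passed an unadjusted p of 0.05, where 0.895% of all genes were lower and 0.82% higher. Both doses count in that term as the same treated level, so the step between doses adds to its spread. The members' median SE was 0.51, against 0.18 for 5 µM against DMSO. The term therefore cannot decide on a line difference present at 5 µM alone. The most negative differences, HCC827 minus NCI-H1975, were -1.05 ± 0.82 for CDK1 (unadjusted p = 0.25), -0.92 ± 1.28 for TOP2A and -0.81 ± 0.63 for UBE2C. The most positive were 0.62 ± 0.35 for NEK2 (unadjusted p = 0.14), 0.43 ± 0.54 for CDC25B and 0.22 ± 0.56 for HMGB3. The fitted difference was below 0 for 35 of 51 members, where 49.8% of all genes were. The median difference over members was -0.12, and it was 0.17 without the HCC827 library at 5 µM, 0.05 without NCI-H1975 at 2.5 µM, -0.32 without NCI-H1975 at 5 µM and -0.41 without HCC827 at 2.5 µM.

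**Figure D3:**
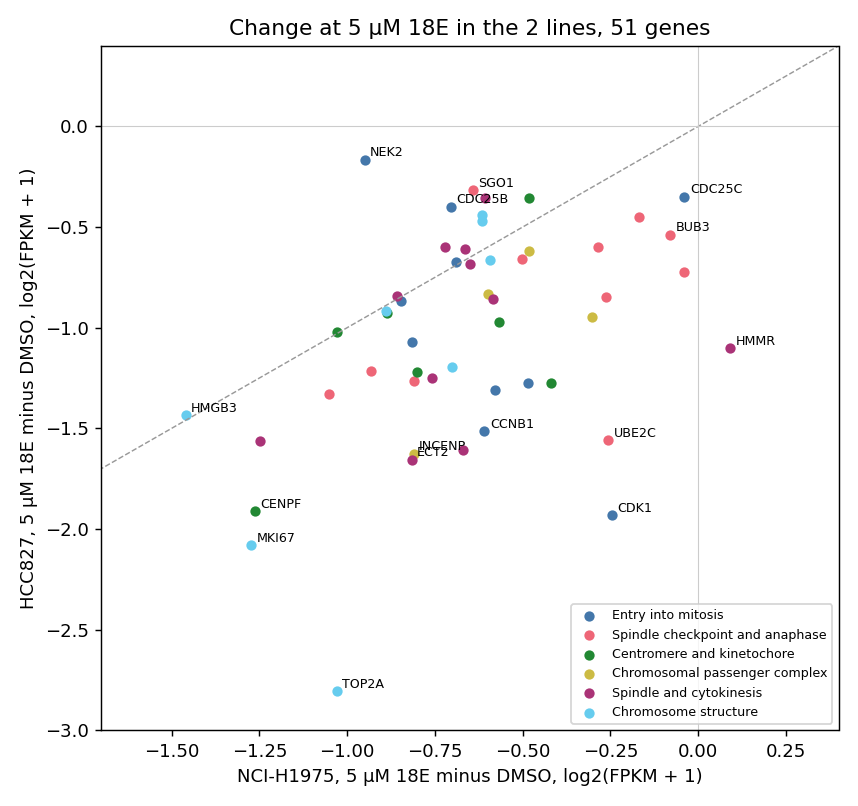
Change of each of the 51 genes at 5 µM 18E against DMSO, log2(FPKM + 1), in NCI-H1975 (x axis) and HCC827 (y axis), coloured by role, with the dashed line marking equal changes. The 38 points under the line had the more negative change in HCC827, TOP2A (-1.03 and -2.81) and CDK1 (-0.25 and -1.93) by the most, and NEK2 (-0.95 and -0.17) lies farthest above it.

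With siDYN, over both siRNAs, 47 of 51 members had a fitted change below 0 (49.1% of the 11718 genes tested), with a median of -0.49 against 0.01 over all genes. The other 4 were CDC25B (0.02), CENPA (0.00), AURKB (0.20) and BIRC5 (0.21). No gene passed the adjusted threshold in limma's test (0% of all genes), and the smallest adjusted p of a member was 0.088. The siRNA target DYNC1LI1 did not pass either, with a fitted change of -2.48 and an adjusted p of 0.078. At an unadjusted p under 0.05, 32 of 51 were lower and 0 higher, where 13.4% of all genes were lower and 12.6% higher. Without the NCI-H1975 siCON library 11 members were lower at that threshold, and the median was -0.36. In all 4 libraries with siDYN 37 members were below siCON (25.6% of all genes) and 2, AURKB and BIRC5, above it (24.9%). Over all genes, the change with siDYN had a Spearman rho of 0.30 to 0.45 with the GC content of the transcript and of -0.27 to -0.40 with its length, according to the library. The members' median GC content was 42.5%, against 49.0% over all genes tested. With the trend on length and GC removed, the members' median was -0.38 and 28 were lower at an unadjusted p under 0.05; at 5 µM 18E it was -0.80 with 47 lower.

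All 11 spindle and cytokinesis genes were lower with siDYN at an unadjusted p under 0.05, with a median of -0.67. Anillin was at 73.9 and 47.9 FPKM with siDYN-1 and siDYN-2 in NCI-H1975 cells, against 129 FPKM with siCON, and 60.5 and 31.3 FPKM with siDYN-1 and siDYN-2 in HCC827 cells, against 102 FPKM with siCON, a fitted change of -1.16 ± 0.29 (SE; adjusted p = 0.10). ECT2 was at 10.8 and 7.63 against 28.7 FPKM in NCI-H1975 cells and 15.8 and 14.1 against 25.1 FPKM in HCC827 cells (siDYN-1 and siDYN-2 against siCON), a change of -1.13 ± 0.24 (SE; adjusted p = 0.097). Both siRNAs were below siCON in both lines for these genes of the cleavage furrow. Of the chromosome structure genes 6 of 8 were lower at that threshold, with a median of -0.71. TOP2A was at 39.9 and 31.6 against 68.9 FPKM in NCI-H1975 cells and 63.8 and 57.4 against 97.8 FPKM in HCC827 cells. MKI67 was at 8.59 and 6.70 against 16.6 FPKM in NCI-H1975 cells and 6.41 and 8.35 against 9.70 FPKM in HCC827 cells. SMC4 was at 30.7 and 27.2 against 55.5 FPKM in NCI-H1975 cells and 21.0 and 22.5 against 36.2 FPKM in HCC827 cells. Each of these was below siCON in all 4 libraries. HMGB3, which had been among the most changed with 18E, was at 30.7 and 20.8 against 29.4 FPKM in NCI-H1975 cells and 61.03 and 38.3 against 54.8 FPKM in HCC827 cells, above siCON with siDYN-1 and below it with siDYN-2. HMGB2 was at 203 and 223 against 249 FPKM in NCI-H1975 cells and 156 and 209.8 against 212 FPKM in HCC827 cells. Of the kinetochore genes 5 of 7 were lower at that threshold (median -0.50). CENPF was at 4.24 and 3.12 FPKM with siDYN-1 and siDYN-2 in NCI-H1975 cells, against 10.2 FPKM with siCON, and 4.14 and 3.96 FPKM with siDYN-1 and siDYN-2 in HCC827 cells, against 8.06 FPKM with siCON, a change of -1.06 ± 0.18 (SE; adjusted p = 0.088). KNL1 was at 1.51 and 1.12 against 2.75 FPKM in NCI-H1975 cells and 1.35 and 1.28 against 1.84 FPKM in HCC827 cells. NDC80 was at 14.8 and 17.4 against 19.8 FPKM in NCI-H1975 cells and 11.5 and 10.1 against 15.3 FPKM in HCC827 cells. Both were below siCON in every library. The centromeric histone CENPA had a fitted change of 0.00, with the siRNAs on opposite sides of siCON. It was 0.14 and 0.23 with siDYN-1 in NCI-H1975 and HCC827 cells, and -0.28 and -0.08 with siDYN-2.

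Of the checkpoint and anaphase genes 6 of 11 were lower at an unadjusted p under 0.05 with siDYN (median -0.39). SGO2 was at 8.48 and 8.28 FPKM with siDYN-1 and siDYN-2 in NCI-H1975 cells, against 18.95 FPKM with siCON, and 6.31 and 6.84 FPKM with siDYN-1 and siDYN-2 in HCC827 cells, against 11.2 FPKM with siCON, a change of -0.89 ± 0.15 (SE; adjusted p = 0.088). TTK was at 18.5 and 19.8 against 32.2 FPKM in NCI-H1975 cells and 13.5 and 14.3 against 20.5 FPKM in HCC827 cells. BUB1 was at 26.1 and 23.6 against 39.1 FPKM in NCI-H1975 cells and 20.3 and 20.2 against 26.5 FPKM in HCC827 cells. BUB1B was at 7.57 and 7.58 against 12.01 FPKM in NCI-H1975 cells and 13.8 and 12.9 against 16.9 FPKM in HCC827 cells. All were below siCON in every library. BUB3 was at 129 and 145 against 144 FPKM in NCI-H1975 cells and 51.9 and 63.0 against 62.1 FPKM in HCC827 cells, and its fitted change was -0.10, or 0.19 with the length and GC trend removed. MAD2L1 was at 21.2 and 24.01 against 28.3 FPKM in NCI-H1975 cells and 30.6 and 29.3 against 26.03 FPKM in HCC827 cells, below siCON in NCI-H1975 cells and above it in HCC827 cells. CDC20 was at 143 and 131 against 183 FPKM in NCI-H1975 cells and 252 and 208 against 239 FPKM in HCC827 cells. It was above siCON only in HCC827 cells with siDYN-1. UBE2C was at 422 and 362 against 564 FPKM in NCI-H1975 cells and 332 and 284 against 342 FPKM in HCC827 cells. ESPL1 was at 9.23 and 7.55 against 12.1 FPKM in NCI-H1975 cells and 5.76 and 7.01 against 8.08 FPKM in HCC827 cells. These enzymes of anaphase were below siCON in every library. Of the entry genes 4 of 10 were lower at that threshold (median -0.38), namely CCNA2, CCNB1, CDC25C and NEK2. CCNB1 was at 143 and 129 against 198 FPKM in NCI-H1975 cells and 131 and 107 against 145 FPKM in HCC827 cells. CDK1 was at 127 and 106 against 148 FPKM in NCI-H1975 cells and 96.6 and 77.6 against 99.7 FPKM in HCC827 cells. Cyclin B1 and its kinase were closest to siCON in HCC827 cells with siDYN-1. FOXM1 was at 21.7 and 16.04 against 25.1 FPKM in NCI-H1975 cells and 56.7 and 47.3 against 53.5 FPKM in HCC827 cells. It was above siCON in that library alone. CDC25C was at 13.1 and 15.3 against 17.8 FPKM in NCI-H1975 cells and 12.1 and 13.1 against 17.1 FPKM in HCC827 cells. NEK2 was at 18.8 and 20.6 against 31.7 FPKM in NCI-H1975 cells and 24.3 and 23.4 against 31.2 FPKM in HCC827 cells. Both were below siCON in every library.

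The chromosomal passenger complex had 0 of 4 subunits past an unadjusted p of 0.05 with siDYN, in either direction, and a median of 0.03. AURKB was at 131 and 147 FPKM with siDYN-1 and siDYN-2 in NCI-H1975 cells, against 122 FPKM with siCON, and 117 and 146 FPKM with siDYN-1 and siDYN-2 in HCC827 cells, against 113 FPKM with siCON, a fitted change of 0.20 ± 0.14 (SE; adjusted p = 0.40). BIRC5 was at 129 and 135 against 107 FPKM in NCI-H1975 cells and 66.1 and 60.6 against 58.2 FPKM in HCC827 cells, a change of 0.21 ± 0.13 (SE; adjusted p = 0.32). Both were above siCON in every library. With the length and GC trend removed AURKB was -0.10. INCENP was at 11.03 and 8.44 against 12.1 FPKM in NCI-H1975 cells and 11.8 and 8.59 against 11.6 FPKM in HCC827 cells. CDCA8 was at 27.2 and 34.7 against 33.4 FPKM in NCI-H1975 cells and 22.99 and 32.8 against 30.6 FPKM in HCC827 cells. CDCA8 was below siCON with siDYN-1 and above it with siDYN-2 in both lines.

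**Figure D4:**
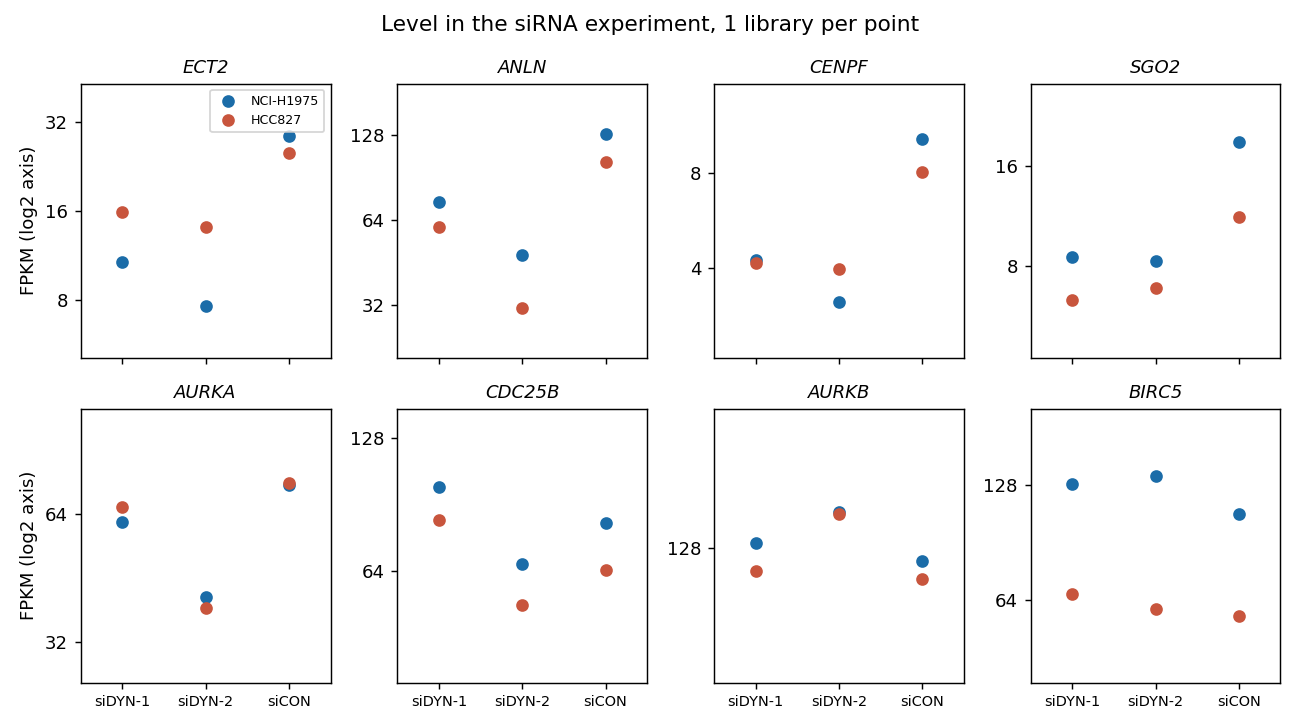
FPKM (log2 axis) of 8 members with siDYN-1, siDYN-2 and siCON, 1 point per library, NCI-H1975 in blue and HCC827 in red. ECT2, ANLN, CENPF and SGO2 are under siCON with both siRNAs, AURKA is lowest with siDYN-2, CDC25B is above siCON with siDYN-1 and below it with siDYN-2, and AURKB and BIRC5 are above siCON.

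The siRNAs differed for some members. In the direct comparison of siDYN-2 with siDYN-1, 71 genes passed the adjusted threshold (0.606% of all genes) and no member did; 12 members were lower with siDYN-2 at an unadjusted p under 0.05 (7.9% of all genes) and 1, CDCA8, higher (13% of all genes). The fitted difference was below 0 for 35 of 51 members (43.8% of all genes). Anillin had the smallest adjusted p, with a difference of -0.77 ± 0.13 (SE; adjusted p = 0.061), and passed the adjusted threshold without either siCON library and without the NCI-H1975 siDYN-2 library. AURKA was at 61.4 and 40.9 against 75.2 FPKM in NCI-H1975 cells and 66.6 and 38.4 against 75.8 FPKM in HCC827 cells, a difference between siRNAs of -0.68 ± 0.12 (SE; adjusted p = 0.064), and passed with the length and GC trend removed. CDC25B was at 99.3 and 66.3 against 82.03 FPKM in NCI-H1975 cells and 83.4 and 53.5 against 64.4 FPKM in HCC827 cells, a difference of -0.60 ± 0.12 (SE; adjusted p = 0.068), and the siRNAs lay on opposite sides of siCON in both lines. PLK1 was at 72.97 and 53.01 against 84.3 FPKM in NCI-H1975 cells and 98.01 and 63.6 against 91.2 FPKM in HCC827 cells, above siCON in HCC827 cells with siDYN-1 alone. The level with siDYN-2 was below that with siDYN-1 in both lines for 24 members (27.7% of all genes) and above it in both for 8 (38% of all genes), namely CDC25C, BUB3, TTK, AURKB, CDCA8, HMGB2, NCAPG and SMC2. The siRNA target was itself lower with siDYN-2 than with siDYN-1, by -0.61, and its part in these differences was not tested.

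The changes with siDYN were more negative in NCI-H1975 cells for 43 of 51 members with siDYN-1 (51.5% of all genes) and for 39 of 51 with siDYN-2 (51.9%). Their medians with siDYN-1 were -0.55 in NCI-H1975 cells and -0.34 in HCC827 cells, and with siDYN-2 -0.64 and -0.44. At least 2-fold lower were 4 and 9 members in NCI-H1975 cells with siDYN-1 and siDYN-2 (1.21% and 4.05% of all genes) and 0 and 2 in HCC827 cells (0.734% and 1.19%). In the interaction term, which uses the siRNAs in place of replicates, no member passed the adjusted threshold. There 0 passed an unadjusted p of 0.05, where 0.674% of all genes were lower and 0.845% higher. The median of HCC827 minus NCI-H1975 was 0.19 over the members, with 8 of 51 below 0 (48.5% of all genes), and ECT2 had the largest difference, 0.85 ± 0.38 (unadjusted p = 0.072). The median was 0.33 without the HCC827 siDYN-2 library and 0.29 without the NCI-H1975 siDYN-1 library. The order of the members was shared by the lines. Across members the changes of the lines had a Pearson r of 0.85 with siDYN-1 and 0.72 with siDYN-2, against 0.60 and 0.65 over all genes tested. The members' changes also went with the GC content of the transcript in both lines. With siDYN-1 the Spearman rho was 0.68 in NCI-H1975 cells and 0.60 in HCC827 cells, and with siDYN-2 0.45 and 0.43. The part of GC content in the shared order was not tested.

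Set side by side, 36 of 51 members were below their control in all 8 treated libraries of both tables, where 10.6% of the genes tested in both were. AURKB and BIRC5 were below DMSO in all 4 libraries with 18E and above siCON in all 4 with siDYN. These were 2 of 51 members, a share near the 3.06% of all genes. In NCI-H1975 cells the change at 5 µM 18E and the mean change with siDYN had a Pearson r of 0.38 and a Spearman rho of 0.43 across the 51 members, against an r of 0.43 over all genes. In HCC827 cells r was 0.13 and rho 0.06, against an r of 0.20 over all genes. At 2.5 µM 18E the order of the lines was the other way. There r was 0.30 in NCI-H1975 cells and 0.46 in HCC827 cells, against 0.36 and 0.31 over all genes. These describe the genes of single libraries, which share their control within a table, and genes are not independent replicates. The tables were normalized apart and differ in agent and in time, which cannot be told apart here. Anillin was lower with siDYN-2 (-1.41 and -1.68 in NCI-H1975 and HCC827 cells) than with 5 µM 18E (-0.86 and -0.84), while HMGB3 had its most negative value in each line with 5 µM 18E. CDK1 was most negative with 5 µM 18E in HCC827 cells (-1.93) and with siDYN-2 in NCI-H1975 cells (-0.48, against -0.25 with 5 µM 18E). Members with a CHR word had a median change of -0.92 at 5 µM 18E and those without of -0.62 (30 and 11 members). The ranges overlapped, at -1.92 to -0.31 with the word and -1.06 to -0.19 without. With siDYN the medians were -0.48 and -0.52. Members that had no promoter window were left out, and a part of the word in these changes was not tested.

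**Figure D5:**
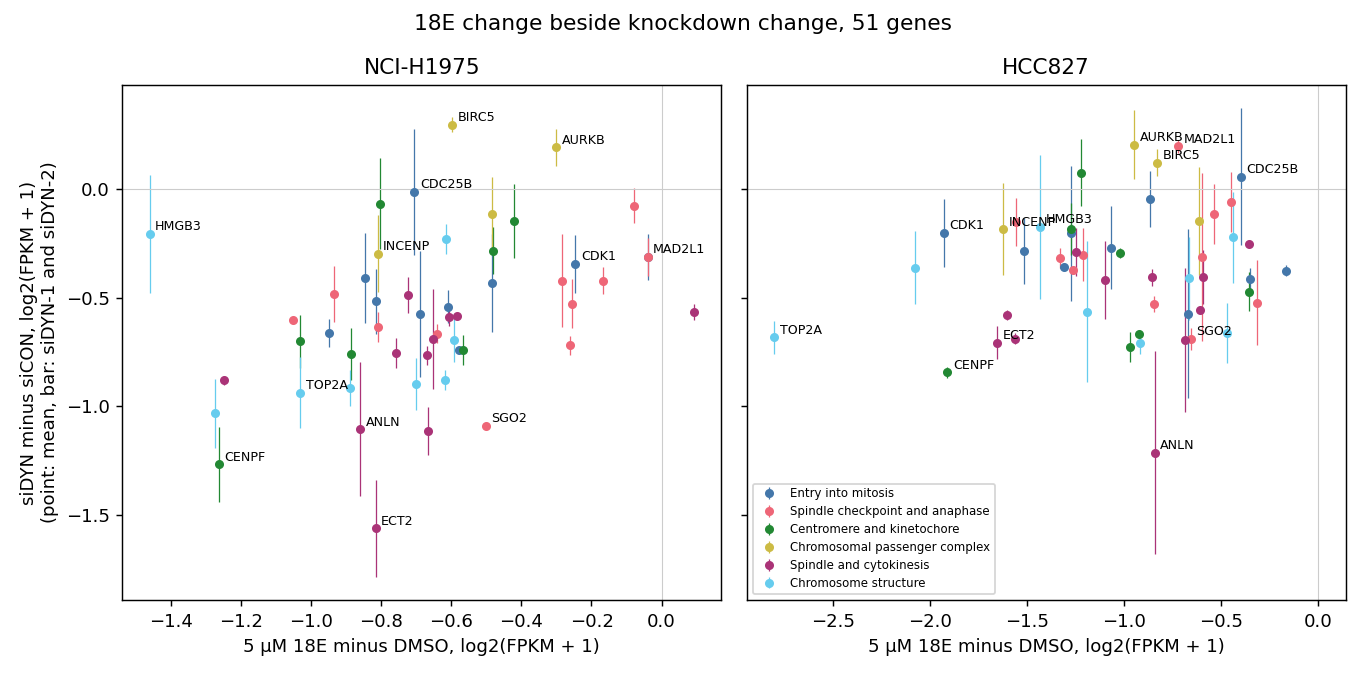
Change of each of the 51 genes at 5 µM 18E against DMSO (x axis) and with siDYN against siCON (y axis, point at the mean, bar from siDYN-1 to siDYN-2), log2(FPKM + 1), in NCI-H1975 (left) and HCC827 (right), coloured by role. Most points lie below 0 on both axes, BIRC5 and AURKB lie above 0 on the y axis in both lines, and HCC827 points spread farther along x than NCI-H1975 points. Across the genes r at this dose was 0.38 in NCI-H1975 and 0.13 in HCC827.

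Other genes of the same machinery were taken from lists by role. No gene of them passed the adjusted threshold at 5 µM 18E against DMSO or with siDYN against siCON. In the comparison of siDYN-2 with siDYN-1, CKS1B, a periodic gene, passed and was higher with siDYN-2, by 1.04 (limma adjusted p = 0.046). At an unadjusted p under 0.05, 16.8% of all genes were lower and 10% higher at 5 µM 18E, and 13.4% lower and 12.6% higher with siDYN. Of 25 other periodic genes of G2 and mitosis, 18 were lower and 1 higher at 5 µM 18E at an unadjusted p under 0.05 (median -0.77), and 10 lower with siDYN (median -0.29). CIT, the citron kinase of cytokinesis, was -1.35 ± 0.23 (SE; adjusted p = 0.10) at 5 µM 18E and GTSE1, a microtubule protein of G2, -1.33 ± 0.20 (SE; adjusted p = 0.10), while CKS2, a small CDK partner, was 0.68 ± 0.24 (SE; adjusted p = 0.15). Of the 4 other condensin subunits 3 were lower at 5 µM (median -1.14) and 1 with siDYN (median -0.39). NCAPG2 was -1.37, NCAPD3 -1.17 and NCAPH2 -0.26 at 5 µM. Among 18 genes of MuvB, B-Myb and their E2F and retinoblastoma partners 8 were lower and 1 higher at 5 µM (median -0.37), against 3 lower and 2 higher with siDYN (median -0.19). RBL2, which encodes p130, was at 13.8, 9.48 and 5.85 FPKM with DMSO, 2.5 µM and 5 µM 18E in NCI-H1975 cells and 11.2, 9.05 and 4.11 FPKM in HCC827 cells, and at 3.94 and 2.04 against 7.70 FPKM in NCI-H1975 cells and 4.48 and 1.97 against 6.85 FPKM in HCC827 cells with siDYN-1 and siDYN-2 against siCON. E2F8, a repressor of the E2F family, was -1.18 ± 0.17 (SE; adjusted p = 0.10) at 5 µM 18E and LIN37, a MuvB subunit, 0.92 ± 0.25 (SE; adjusted p = 0.12).

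Of 18 other outer kinetochore and checkpoint genes 10 were lower and 1 higher at 5 µM at an unadjusted p under 0.05 (median -0.46), against 3 and 3 with siDYN (median -0.15). SPC24, the partner of SPC25, was -1.05 and SKA2, a subunit of the SKA complex, -0.93 at 5 µM, while MAD1L1, the kinetochore anchor of MAD2, was 0.53 ± 0.17 (SE; adjusted p = 0.14) at 5 µM and 0.60 with siDYN. Of 19 inner kinetochore and CENPA loading genes 5 were lower at 5 µM (median -0.31) and 5 lower and 1 higher with siDYN (median -0.13). CENPI was -1.29, HJURP, the chaperone of CENPA, -0.85, and CENPT 0.37 at 5 µM. Of 11 cohesin genes 2 were lower at 5 µM (median -0.32) and 7 with siDYN (median -0.51), SMC1A being -1.09, CDCA5, which encodes sororin, -0.46, and the release factor WAPL 0.08 at 5 µM. Of 16 other subunits, enzymes and co-activators of the anaphase-promoting complex 3 were lower at 5 µM (median -0.22), against 2 lower and 1 higher with siDYN (median 0.01). At 5 µM the shares of the cohesin and anaphase-promoting complex lists that were lower were thus near the 16.8% of all genes. ANAPC4 was -0.64, FZR1, the co-activator CDH1, -0.60, and the enzyme UBE2S 0.46 at 5 µM. Of 10 kinases and phosphatases that time entry 3 were lower at 5 µM (median -0.07), ARPP19, an inhibitor of the phosphatase PP2A, at -0.70, CDC14B at -0.51 and PPP2R2A, a PP2A subunit, at 0.75; with siDYN 3 were lower and 1 higher (median -0.17).

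Of the 6 partners of dynein at kinetochores and spindle poles 3 were lower at 5 µM 18E at an unadjusted p under 0.05 (median -0.22), and 1 lower and 1 higher with siDYN (median -0.15). GPSM2, which encodes LGN and anchors dynein at the cortex, was -1.03 ± 0.18 (SE; adjusted p = 0.10) at 5 µM. NDE1, a dynein regulator, was at 11.2, 8.11 and 7.93 FPKM with DMSO, 2.5 µM and 5 µM 18E in NCI-H1975 cells and 27.3, 19.5 and 15.6 FPKM in HCC827 cells. NDEL1, its close relative, was at 15.1, 15.0 and 17.2 FPKM in NCI-H1975 cells and 21.4, 24.4 and 74.7 FPKM in HCC827 cells, in the same order of doses, and the HCC827 library at 5 µM stood far above the other 5.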

How the data were processed

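RNA was extracted with Trizol and sequenced from Illumina TruSeq libraries in 12 samples, per the labels' protocols. Each experiment has a table in which the authors give FPKM to 2 decimals, per the file headers. The submitters' processing notes list Bowtie 0.12.2 and, among builds, GRCh38.p12 and the mouse build mm8, without saying what each was for. Quantifier, annotation and strand use: not given in the sources used here. Broken lines (40 and 20) were left out, 0 columns were unmatched, and low values showed no steps of whole reads, so depth, and with it precision from counting, is unknown.

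Genes reaching 1 FPKM in 2 or more of 6 libraries were tested on log2(FPKM + 1), which understates changes of low genes, with limma 3.58.1 in R 4.3.3, a variance trend, cell line as a block and Benjamini-Hochberg adjusted p under 0.05 over all genes, two-sided (residual degrees of freedom: 2 in the 18E fit, 3 in the siDYN fit). The line pairs the samples: differences between the lines correlated at 0.79 to 0.94 between treatments over all genes. Each table was tested on its own. Code was tested on simulated data. Alternatives were another pseudocount (0.1), no low-value filter, equal FPKM totals, quantile normalization, no line term, no variance trend, each library left out and, chosen after seeing the data, removal of a length and GC trend. Named genes were, per role group, the 2 most negative and the least negative member at 5 µM and the largest change with siDYN, the 3 extremes each way of the line difference, and 13 textbook members; other lists give the 2 most negative and the most positive. A few further members were named after their values were seen. The members and lists were chosen with earlier results of these data known. Gene positions are from GENCODE 29.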

Additional observations from a re-analysis of the deposited data

Results flagged for a closer look

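HMMR was above DMSO in both NCI-H1975 libraries with 18E (0.18 at 2.5 µM and 0.09 at 5 µM on the log2 scale) and below it in both HCC827 libraries (-0.21 and -1.10); its difference, HCC827 minus NCI-H1975, was -0.79 ± 0.57 in the interaction term (limma adjusted p = 1.00, unadjusted p = 0.22). MAD2L1 was below siCON in both NCI-H1975 libraries with siDYN (-0.40 and -0.23) and above it in both HCC827 libraries (0.22 and 0.16); its difference was 0.51 ± 0.30 (limma adjusted p = 1.00, unadjusted p = 0.15). Neither difference passed the adjusted threshold, and both genes overlap exons of a gene on the opposite strand.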

How the results depend on the processing

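With the line pairing ignored (no replicate block), 0 members passed the adjusted threshold in any of the 5 comparisons so fitted, medians were the same (-0.85 at 5 µM, -0.32 at 2.5 µM, -0.52 for 5 µM against 2.5 µM, -0.49 with siDYN, -0.07 for siDYN-2 against siDYN-1), and members lower at an unadjusted p under 0.05 numbered 7 at 5 µM and 17 with siDYN, against 46 and 32 with the block. Leaving out each library in turn gave 0 to 42 members past the adjusted threshold at 5 µM, 0 to 28 for 5 µM against 2.5 µM and 0 to 1 (ANLN) for siDYN-2 against siDYN-1. The median ranged from -0.40 to -0.21 at 2.5 µM, -0.62 to -0.33 for 5 µM against 2.5 µM, -0.41 to 0.17 for the 18E line difference, -0.59 to -0.36 with siDYN, 0.14 to 0.33 for the siDYN line difference and -0.19 to -0.01 for siDYN-2 against siDYN-1. In the line difference TOP2A ranged from -2.07 to 0.22 and HMGB3 from -0.18 to 0.61; with siDYN CDC25B ranged from -0.12 to 0.15 and MAD2L1 from -0.31 to 0.19. Line differences without a control library could not be fitted.

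Equal FPKM totals gave medians of -0.37 at 2.5 µM (-0.40 in NCI-H1975 cells, -0.34 in HCC827 cells), 0.24 for the siDYN line difference, -0.80 in NCI-H1975 cells with siDYN-2 and -0.10 for CDC25B with siDYN. Quantile normalization gave -0.37 and -0.33 in NCI-H1975 and HCC827 cells at 2.5 µM, -0.14 for siDYN-2 against siDYN-1 and -0.10 for CDC25B with siDYN. With the length and GC trend removed, medians were -0.29 at 2.5 µM and 0.14 for the siDYN line difference, 1 member, AURKA, passed for siDYN-2 against siDYN-1, and with siDYN CDC25B was -0.09, BUB3 0.19, AURKB -0.10 and MAD2L1 0.22. A pseudocount of 0.1 gave r = 0.18 between 5 µM 18E and siDYN changes in HCC827 cells. The cause of these shifts was not tested. For single genes 854 values kept their direction and side of the threshold, 51 gained the threshold and 13 reversed; for the main results 170 kept, 35 moved and 2 reversed. Read totals are not known, so counting error of low members such as KNL1 cannot be given.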
